A study of Mus musculus with 39 samples.

Results

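The miR-23, miR-27 and miR-24 miRNAs are encoded as a pair of paralogous clusters in the mouse genome, and 6 of the 650 miRNAs on the array come from them. These members were taken by name: mmu-miR-23a, mmu-miR-27a and mmu-miR-24-2* from the miR-23a cluster, mmu-miR-23b and mmu-miR-27b from the miR-23b cluster, and mmu-miR-24, whose mature form both clusters encode. The family was chosen by measured values: miR-27a and miR-23a stood among the strongest rises when cells given both growth factors for 3 days were set against their controls, so values of that comparison are given as a description with no test. A further 3 entries of the array, mmu-miR-27a*, mmu-miR-27b* and mmu-miR-24-1*, are the opposite arms of the same hairpins, and they were detected on none of the 39 arrays.

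In each cluster the hairpins of a miR-23, a miR-27 and a miR-24 are cut from 1 primary transcript, so they can be made together, while the stability of each mature miRNA can still differ. MiR-23 and miR-24 are known for roles in the endothelium, in muscle and in cell cycle control, and miR-27 for restraining adipocyte formation. The miR-23b cluster is also known to repress Smad proteins, which carry the signal of Activin and TGF-beta receptors into the nucleus. Activin A and Wnt3a are the growth factors used here to drive embryonic stem cells (ESCs) towards definitive endoderm, the germ layer that forms gut, liver and pancreas.

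The samples were mouse ESCs of the line TCL-1, a single line of 129/SvJae origin grown with LIF on feeder cells, mouse embryonic fibroblasts stopped with mitomycin C. Feeder cells were removed by settling on gelatin, and RPMI 1640 with B27 and sodium butyrate was given to every differentiating culture, the controls included. Beside undifferentiated ESCs there were 4 treatments at 1, 3 and 5 days: no growth factor (control), Activin A at 100 ng/ml, Wnt3a at 50 ng/ml, or the 2 factors combined. Each of these 13 groups had 3 one-colour Agilent arrays. The labels do not say whether these came from separate cultures, so p-values measure the spread between these samples, which may be technical.

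Feature Extraction, the scanner software, detected 183 to 375 miRNAs per array, with a group median of 193 in ESCs and group medians reaching 222 on day 1, 309 on day 3 and 352 on day 5. Replicate arrays correlated at 0.867 to 0.999, no spot was saturated, and 1 array, replicate 1 of Wnt3a at day 5, stood apart for several members below. All 11 pluripotency miRNAs of the miR-290 and miR-302 clusters were detected on every ESC array, and so were 5 of 7 miRNAs typical of fibroblasts. The arrays lay on 5 slides scanned in 2 sessions. Activin A plus Wnt3a was the only treatment of day 3 on its slide and in its session, so at day 3 this treatment, its slide and its session cannot be told apart. No treatment had arrays of different days on the same slide. For control, Activin A and Wnt3a, day 5 was also scanned in another session than days 1 and 3. Differences between days of a treatment therefore cannot be told apart from slide, nor, for these treatments, those to day 5 from session. In the authors' processed matrix, 18 of 39 columns follow the scanner values of another array, with Activin A and Activin A plus Wnt3a exchanged on each day. The scanner files are used as labelled here, and were they the wrong ones, these 2 treatments would change places.

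The mature sequences are shown because the paralogs are close enough to bear on how the probes can be read. They come from RefSeq for build GRCm38.p6, which held 5 of the 6 members, and the capitals mark the seed, bases 2 to 8 counted from 1 at the 5′ end, which pairs with target messages.
mmu-miR-23a: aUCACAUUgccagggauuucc
mmu-miR-27a: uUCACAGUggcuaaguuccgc
mmu-miR-27b: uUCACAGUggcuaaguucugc
mmu-miR-24: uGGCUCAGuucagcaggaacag
mmu-miR-24-2*: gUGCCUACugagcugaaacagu
mmu-miR-24-1*: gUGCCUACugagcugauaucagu

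MiR-27a and miR-27b share their seed and differ at 1 of 21 bases, C19U from miR-27a to miR-27b. How far the array's probes separate them was not tested, so signal of one may include some of the other. MiR-24 is the same molecule from both loci, and its signal cannot be divided between them. The 5′ arms opposite miR-24 share their first 16 bases. The miR-23a cluster lies on the plus strand of chromosome 8, where the hairpins Mir23a, Mir27a and Mir24-2 span the 404 bases of chr8:84208518-84208921. Mature miR-23a is at chr8:84208563-84208583, miR-27a at chr8:84208727-84208747, miR-24-2* at chr8:84208839-84208860 and miR-24 at chr8:84208875-84208896. The miR-23b cluster spans 792 bases of the plus strand of chromosome 13, chr13:63300484-63301275, inside the span of the protein-coding gene Aopep. There miR-27b is at chr13:63300760-63300780 and the second copy of miR-24 at chr13:63301251-63301272.

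In undifferentiated ESCs all 5 abundant members were detected on every array. The background-subtracted signals of replicates 1, 2 and 3, in the scanner's intensity units and not normalized, were 254, 252 and 278 for miR-23a. They were 234, 233 and 248 for miR-27a, 320, 279 and 315 for miR-24, 115, 112 and 122 for miR-23b and 74.4, 71.3 and 82.2 for miR-27b. Replicates of a member thus lay close together in ESCs, while levels of different miRNAs cannot be ranked because each has its own probes. After quantile normalization over the 39 arrays, a floor of 2 and log2 transformation, the ESC levels were 9.12 ± 0.04 for miR-23a, 8.94 ± 0.11 for miR-27a, 9.57 ± 0.08 for miR-24, 7.90 ± 0.09 for miR-23b and 7.36 ± 0.05 for miR-27b (SD, n = 3). All differences below are on this log2 scale unless a sentence names intensity units. A miRNA was called where limma's adjusted p, over all miRNAs tested on that day or over time, was under 0.05 and the difference was over 2-fold.

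**Figure D1:**
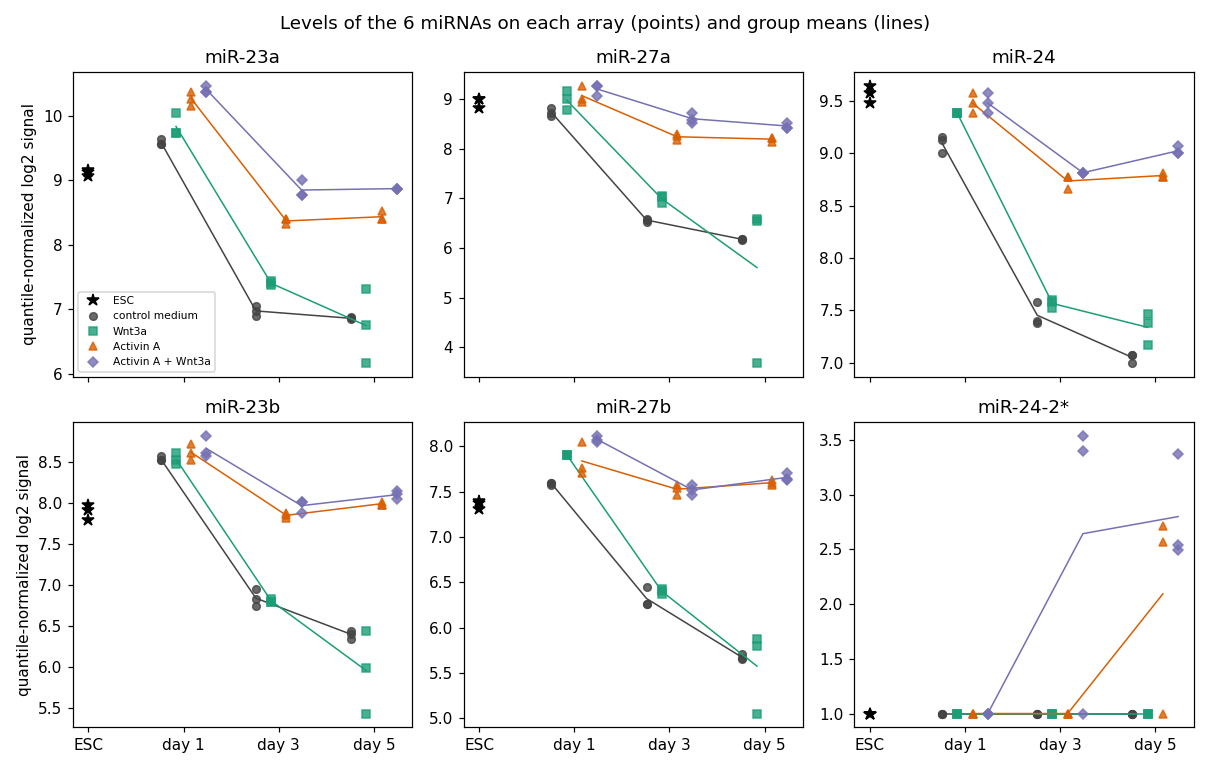
Log2 normalized signal of the 6 members, 1 panel each, by treatment and day. Points are single arrays, 3 per group, and lines join group means, with undifferentiated ESCs at the left. At days 3 and 5 the arrays with Activin A lie above the control arrays for the 5 abundant members, and miR-24-2* stays at the floor of 1 on all but 7 arrays.

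On leaving the ESC state the members did not move together. From ESC to control day 1, miR-23a rose by 0.48 on the log2 scale (adjusted p = 0.0102) and miR-23b by 0.64 (adjusted p = 0.000214), while miR-24 fell by 0.47 (adjusted p = 1.78e-06) in limma's fit of all 39 arrays. Of all 373 miRNAs tested, 16.6% were called between these groups and 30.3% passed the adjusted p alone, and no member was past 2-fold. The direction for miR-24 turned to a rise of 0.17 when arrays were scaled to their 75th percentile. Its unnormalized signals were 258, 336 and 303 at control day 1, which overlap the ESC signals. MiR-27a changed by -0.21 (adjusted p = 0.999) and miR-27b by 0.23 (adjusted p = 0.162). Without replicate 1 of Wnt3a day 5, an array outside both groups that widened the pooled spread, the same differences had adjusted p = 0.0482 and 0.00202.

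Without growth factor, all 5 abundant members fell from day 1 to day 3. MiR-23a had signals of 325, 394 and 368 at control day 1 and of 134.7, 138 and 141 at control day 3, with no overlap. MiR-27a went from 206, 239 and 211 to 95.4, 102 and 93.5, and miR-24 from 258, 336 and 303 to 178, 185 and 186. The members of the miR-23b cluster moved less in these units. MiR-23b went from 164, 199 and 182 to 115, 123 and 125, with no overlap, and miR-27b from 77.2, 106 and 92.8 to 81.5, 84.3 and 85.8, where the groups overlap.

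On the normalized log2 scale miR-23a fell by 2.62 (6.16-fold lower, adjusted p = 1.67e-15 in limma's fit) and miR-27a by 2.17 (4.49-fold, adjusted p = 1.21e-05). MiR-24 fell by 1.64 (3.13-fold, adjusted p = 9.52e-19), miR-23b by 1.70 (3.25-fold, adjusted p = 2.15e-12) and miR-27b by 1.27 (2.41-fold, adjusted p = 1.62e-10). Of the 373 miRNAs tested, 49.3% were called in this comparison, 17.2% as lower. The median difference of all miRNAs was 0.50 against -1.70 for the 5 members. Only part of these sizes is free of the scaling. With each day normalized alone the falls were between 0.22 and 1.58, miR-27b had adjusted p = 0.0823 and 2 members were called in place of 5, beside a median of all miRNAs of 1.10. The control day 3 arrays are shared with the comparison through which the family was chosen.

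Fibroblast miRNAs fell over the same days. Of the 6 tested from this list of 7 (miR-143, miR-145, miR-199a-3p, miR-199a-5p, miR-214, miR-21 and miR-22), 5 were lower at control day 3 than at day 1 at an adjusted p under 0.05, with a median difference of -3.73. Of all miRNAs, 17.2% were called as lower past 2-fold, and the share at the adjusted p alone is not given. Their summed log2 level ranged from 12.02 to 12.04 at control day 1 and from 9.84 to 10.20 at control day 3, where 4 of 7 were detected on no array. In RNA from whole cultures, fewer cells of a type and less RNA per cell cannot be told apart, and the part of feeder cells in the members' fall was not tested.

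From day 3 to day 5 without growth factor, miR-24 fell by a further 0.40 (adjusted p = 9.18e-06 in limma's fit), miR-23b by 0.44 (adjusted p = 0.00546) and miR-27b by 0.65 (adjusted p = 4.01e-05). MiR-23a changed by -0.11 and miR-27a by -0.39, which did not pass. None of these was past 2-fold, beside 18.5% of miRNAs called and 41.6% at the adjusted p alone. With each day normalized alone none of the 3 passed, at -0.14 for miR-24 (adjusted p = 0.0891), -0.17 for miR-23b (adjusted p = 0.26) and -0.26 for miR-27b (adjusted p = 0.0527), and miR-23b also missed with scaling to the 75th percentile of miRNAs detected on all arrays (adjusted p = 0.0646). The miR-27a value passed without replicate 1 of Wnt3a day 5 (adjusted p = 0.00022). Control day 5 lay on another slide and in another session than control day 3, so day, slide and session cannot be told apart here. The control day 3 arrays are again those of the comparison that chose the family.

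At day 1, Activin A was accompanied by small differences. MiR-23a had signals of 515, 394 and 618 with Activin A against 325, 394 and 368 in control, and miR-24 had 429, 314 and 470 against 258, 336 and 303. In both, replicate 2 of Activin A was the lowest of its group and lay within the control range or at its top. MiR-23a was higher by 0.67 ± 0.09 (SE, n = 3; adjusted p = 0.00199) and miR-24 by 0.38 ± 0.07 (adjusted p = 0.00979) in limma's fit of the 12 arrays of the day. MiR-27a, miR-23b and miR-27b differed by 0.34, 0.08 and 0.25, which did not pass. Thus 2 of 5 members passed at the adjusted p alone, against 3.33% of 240 miRNAs, and 0% of all miRNAs (0 of 240) were past 2-fold as well. Scaling to the 75th percentile of all miRNAs left miR-23a at 0.34 (adjusted p = 0.865) and miR-24 at 0.30 (adjusted p = 0.865). The miR-27b difference passed without replicate 3 of Activin A day 1 (0.14, adjusted p = 0.042).

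With Activin A plus Wnt3a at day 1, 4 of the 5 members were higher than control at an adjusted p under 0.05, against 25% of all miRNAs. MiR-23a was higher by 0.81 (adjusted p = 0.000373), miR-27a by 0.47 (adjusted p = 0.0195), miR-24 by 0.38 (adjusted p = 0.00381) and miR-27b by 0.49 (adjusted p = 0.00244) in limma's fit, none past 2-fold, as 5.42% of miRNAs were. All control arrays of day 1 lay on 1 slide and all arrays with both factors on another, and with slide as a term miR-23a had adjusted p = 0.0625 and the others 0.126 to 0.71. Scaling to the 75th percentile of all miRNAs gave adjusted p 0.399 to 0.712 for the 4. The miR-27a value was also lost without any 1 of 3 arrays, replicate 2 or 3 of the combined treatment or replicate 3 of control (adjusted p 0.0562 to 0.0669). Wnt3a alone passed for miR-24 (0.29, adjusted p = 0.0165) and miR-27b (0.32, adjusted p = 0.0202), beside 20% of all miRNAs (4.17% past 2-fold as well), and with slide as a term these had adjusted p = 0.655 and 1. Scaling to the 75th percentile of all miRNAs turned miR-24 to -0.078 (adjusted p = 0.842) and left miR-27b at 0.13 (adjusted p = 0.759). They also missed the threshold without any 1 of several arrays, replicates 1, 2 or 3 of Wnt3a or replicate 1 of control for both, and replicate 3 of control for miR-27b (adjusted p 0.0526 to 0.0633). Activin A added to Wnt3a passed for miR-23a at day 1 (0.57, adjusted p = 0.00561; limma), beside 4.58% of miRNAs. That call was lost with scaling to the 75th percentile of all miRNAs (0.37, adjusted p = 1) and in the plain test named in the methods (adjusted p = 0.094). Wnt3a added to Activin A passed for no member, beside 10.4%. Without replicate 3 of Activin A day 1, miR-27b passed in both of these comparisons, at 0.17 (adjusted p = 0.00788) and 0.34 (adjusted p = 0.000206).

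At day 3 the arrays with Activin A stood clear of the control arrays for every abundant member. MiR-23a had signals of 389, 344 and 456 with Activin A against 134.7, 138 and 141 in control. MiR-27a had 351, 338 and 400 against 95.4, 102 and 93.5. MiR-24, the mature form made by both clusters, had 536, 462 and 593 against 178, 185 and 186. MiR-23b had 281, 252 and 328 against 115, 123 and 125, and miR-27b, which differs from miR-27a by a single base, had 228, 192 and 260 against 81.5, 84.3 and 85.8. No Activin A array overlapped a control array in any of these. The share of all miRNAs free of such overlap was not counted, here or for other groups.

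On the normalized scale the difference of Activin A from control at day 3 was 1.68 ± 0.06 for miR-27a (3.20-fold; adjusted p = 2.25e-08) and 1.40 ± 0.07 for miR-23a (2.63-fold; adjusted p = 1.1e-07). It was 1.28 ± 0.06 for miR-24 (2.44-fold; adjusted p = 7.97e-08), 1.21 ± 0.06 for miR-27b (2.31-fold; adjusted p = 1.55e-07) and 1.01 ± 0.06 for miR-23b (2.02-fold; adjusted p = 4.86e-07; limma, SE, n = 3). These 5 were called, beside 19% of 326 miRNAs, 12.6% as higher, and the median difference was -0.04 over all miRNAs. MiR-23b lay just past the 2-fold line, and with normexp background correction, which adds 50 to each signal, 0 members were past it although all 5 kept adjusted p under 0.001 at 0.52 to 0.98. This comparison shares its control arrays with the comparison that chose the family. The 2 probes of each abundant member gave differences of the same sign, from 0.86 to 1.66. Within the slide that held all 3 Activin A arrays and 5 arrays of control or Wnt3a, the arrays with Activin A were higher by 1.14 for miR-23a, 1.42 for miR-27a, 1.20 for miR-24, 1.01 for miR-23b and 1.15 for miR-27b, with no overlap.

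**Figure D2:**
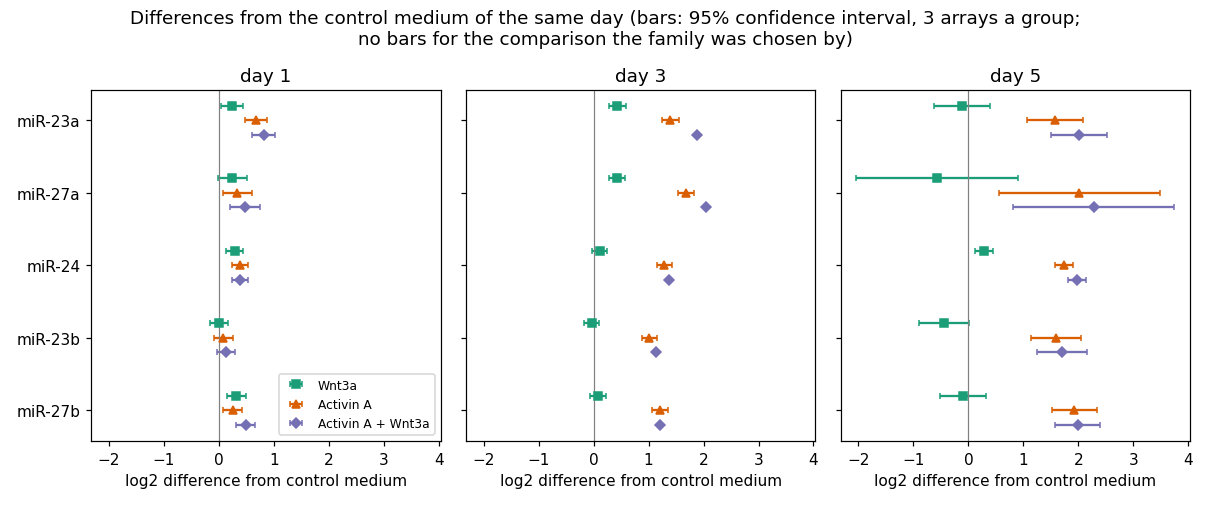
Log2 difference from control of the same day for the 5 abundant members, in 3 panels for days 1, 3 and 5, by treatment. Points are limma estimates from 3 arrays against 3 and bars their 95% confidence intervals, with no bar for Activin A plus Wnt3a at day 3, the comparison the family was chosen by. Activin A and Activin A plus Wnt3a lie above 1 for all 5 members at days 3 and 5, and the interval of miR-27a is wide at day 5.

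Activin A plus Wnt3a at day 3 had signals of 553, 470 and 577 for miR-23a and of 436, 422 and 486 for miR-27a. The corresponding differences from control, which chose the family and are not tested, were 1.88 for miR-23a (3.67-fold) and 2.04 for miR-27a (4.11-fold). They were 1.36 for miR-24, 1.13 for miR-23b and 1.20 for miR-27b, in a comparison that called 20.2% of all miRNAs. Set against Activin A alone, the combination stood higher by 0.48 for miR-23a and 0.36 for miR-27a, while miR-24, miR-23b and miR-27b were at 0.08, 0.12 and -0.01. The slide holding the combination held no other array of that day.

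Wnt3a alone at day 3 gave miR-23a signals of 194, 197 and 218 and miR-27a signals of 157, 156 and 159, all above the control arrays. Each differed from control by 0.43 (adjusted p = 0.00126 for miR-23a and 0.000931 for miR-27a; limma), short of 2-fold. MiR-24, miR-23b and miR-27b differed by 0.11, -0.03 and 0.08, which did not pass. Of all miRNAs, 35% passed in the same comparison (3.07% past 2-fold as well). The control arrays are those of the comparison by which the family was chosen through these same 2 members, and a difference between the clusters was not tested. In a fit of all 39 arrays, whose pooled spread is wider for these miRNAs, both values missed the threshold (adjusted p = 0.063 and 0.703). The miR-24 difference passed without replicate 3 of control day 3 (0.18, adjusted p = 0.0225).

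At day 5 the arrays with Activin A again stood clear of the control arrays. MiR-23a had signals of 589, 525 and 530 with Activin A against 136, 141 and 139 in control, and miR-27a had 460, 427 and 416 against 86.3, 86.4 and 88.8. MiR-24 had 715, 658 and 637 against 170, 162 and 173. MiR-23b had 416, 372 and 390 against 96.6, 103 and 103, and miR-27b had 339, 314 and 292 against 67.4, 68.0 and 71.8. Every Activin A array was over all control arrays for each member, and the share of all miRNAs for which this holds was not counted.

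Normalized, the Activin A difference at day 5 was 2.01 ± 0.65 for miR-27a (4.04-fold; adjusted p = 0.0381), 1.93 ± 0.18 for miR-27b (3.80-fold; adjusted p = 2.77e-05) and 1.74 ± 0.07 for miR-24 (3.34-fold; adjusted p = 7.73e-08). It was 1.59 ± 0.20 for miR-23b (3.02-fold; adjusted p = 0.000194) and 1.58 ± 0.23 for miR-23a (2.98-fold; adjusted p = 0.000416; limma, SE, n = 3). All 5 were called, beside 25% of 368 miRNAs, 13.6% as higher, and the median over all miRNAs was -0.03. The large error of miR-27a comes with 1 array: without replicate 1 of Wnt3a its difference was again 2.01, with adjusted p = 9.47e-10. With that array kept, the adjusted p of miR-27a passed the threshold or missed it according to which other array was left out. It reached 0.0548 to 0.0898 on omission of any 1 array of control, Activin A or Activin A plus Wnt3a.

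Activin A plus Wnt3a at day 5 had signals of 669, 590 and 560 for miR-23a, 508, 463 and 393 for miR-27a and 756, 651 and 600 for miR-24. MiR-23b had 404, 351 and 330.5 and miR-27b 305, 273 and 253. These lay above all control arrays and close to those of Activin A alone. The differences from control were 2.01 for miR-23a (adjusted p = 7.39e-05), 2.28 for miR-27a (adjusted p = 0.0176), 1.98 for miR-24 (adjusted p = 3.23e-08), 1.70 for miR-23b (adjusted p = 9.83e-05) and 1.99 for miR-27b (adjusted p = 1.88e-05), in limma's fit. All 5 were called, beside 30.4% of all miRNAs and 15.5% as higher. The miR-27a call was lost without replicate 3 of the combination (adjusted p = 0.0505) and with slide as a term (2.35, adjusted p = 0.234).

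Adding Wnt3a to Activin A at day 5 changed no member past the threshold. The differences between both treatments were 0.44 for miR-23a, 0.26 for miR-27a, 0.24 for miR-24, 0.11 for miR-23b and 0.06 for miR-27b, beside 4.89% of miRNAs that passed. Without replicate 1 of Wnt3a day 5, which is in neither group but in the same fit, miR-23a (adjusted p = 0.0346), miR-27a (adjusted p = 0.00125) and miR-24 (adjusted p = 0.0471) passed at the same sizes, and miR-24 also passed without replicate 2 of Wnt3a (adjusted p = 0.0215).

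Replicate 1 of Wnt3a day 5 had the lowest signals of its group for every member. MiR-23a was at 64.2, 236 and 218 in replicates 1, 2 and 3, miR-27a at 20.7, 199 and 149, and miR-24 at 163, 288 and 242. MiR-23b was at 42.2, 154 and 139 and miR-27b at 34.2, 132 and 101. In these intensity units the first array lay under all control arrays of the day except for miR-24, where it lay among them. The other 2 arrays lay above the control arrays for every member in the same units, which did not hold for miR-23a and miR-23b once normalized. Against control, Wnt3a differed by -0.11 for miR-23a, -0.57 for miR-27a, -0.44 for miR-23b and -0.10 for miR-27b, none of which passed, and by 0.29 for miR-24 (adjusted p = 0.0434). Of all miRNAs, 8.15% passed. The miR-24 call was lost on omission of any 1 array of control, Activin A or Activin A plus Wnt3a, or of replicate 3 of Wnt3a (adjusted p 0.064 to 0.165). It was also lost in 11 of 14 alternatives of the processing. Without replicate 1 the differences of miR-27a and miR-27b turned to 0.39 (adjusted p = 0.00031) and 0.16 (adjusted p = 0.0132). That of miR-23a turned to 0.18 and that of miR-23b stayed lower at -0.18, and neither passed. Without replicate 3 miR-23b was lower by 0.69 (adjusted p = 0.0149).

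Slide could be held fixed at day 5 for some comparisons only. The control arrays of that day shared no slide with arrays of Wnt3a or of the combination. Differences of these 2 treatments from control at day 5 were therefore never within a slide. On the slide with 2 Activin A and 3 control arrays, the arrays with Activin A were higher by 1.60 for miR-23a, 2.04 for miR-27a, 1.75 for miR-24, 1.60 for miR-23b and 1.94 for miR-27b. On the slide with 4 arrays that received Activin A, with or without Wnt3a, and 3 of Wnt3a alone, they were higher by 2.01, 2.77, 1.63, 2.12 and 2.06 in the same order. Without replicate 1 of Wnt3a, which lies on this slide, these values were 1.72, 1.81, 1.65, 1.85 and 1.80. At day 1 the slide values were 0.62 and 0.56 for miR-23a, 0.24 on both slides for miR-27a, and 0.03 to 0.34 for the other members.

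Over time with Activin A, the normalized level of miR-23a fell by 1.90 from day 1 to day 3 (adjusted p = 3.01e-12), and miR-24 (0.74, adjusted p = 9.06e-11), miR-23b (0.77, adjusted p = 7.31e-06) and miR-27b (0.31, adjusted p = 0.0236) also fell in limma's fit, beside 42.4% of miRNAs called and 58.2% at the adjusted p alone. MiR-27a changed by -0.83 (adjusted p = 0.0645), which passed without replicate 1, 2 or 3 of Wnt3a day 5 (adjusted p 9.28e-10 to 0.0376). The miR-27b value missed without replicate 3 of Activin A day 1 (adjusted p = 0.171) or replicate 2 of Activin A day 3 (adjusted p = 0.0782). Of these falls only that of miR-23a had the same direction in the unnormalized group means, which went from 509 to 396, and its arrays overlap (394 to 618 at day 1, 344 to 456 at day 3). The unnormalized means rose from 327 to 363 for miR-27a, from 404 to 530 for miR-24, from 229 to 287 for miR-23b and from 129 to 227 for miR-27b. With each day normalized alone, miR-24, miR-23b and miR-27b were higher at day 3, by 0.20, 0.13 and 0.76, and miR-27a stood at 0.10 without passing. This was the 1 of 14 alternatives in which the fall of miR-24, miR-23b and miR-27b turned to a rise, and the fall of miR-27a passed in 6 of 14. The direction of these members over time with Activin A therefore depends on whether days are put on a common scale. Their difference from control at day 3 and at day 5 was above 0 under every scaling tried.

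From day 3 to day 5 with Activin A, changes of the 5 members were between -0.05 and 0.14 and none passed, beside 15.5% of miRNAs that did. Among 14 alternatives a rise passed in 2 for miR-23b and in 1 each for miR-24 and miR-27b. The unnormalized means rose from 396 to 548 for miR-23a, 363 to 434 for miR-27a and 530 to 670 for miR-24. They rose from 287 to 393 for miR-23b and from 227 to 315 for miR-27b. With Wnt3a alone, all 5 fell from day 1 to day 3, by 2.43 for miR-23a, 1.99 for miR-27a, 1.82 for miR-24, 1.73 for miR-23b and 1.51 for miR-27b, and all were called, beside 44% of miRNAs.

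**Figure D3:**
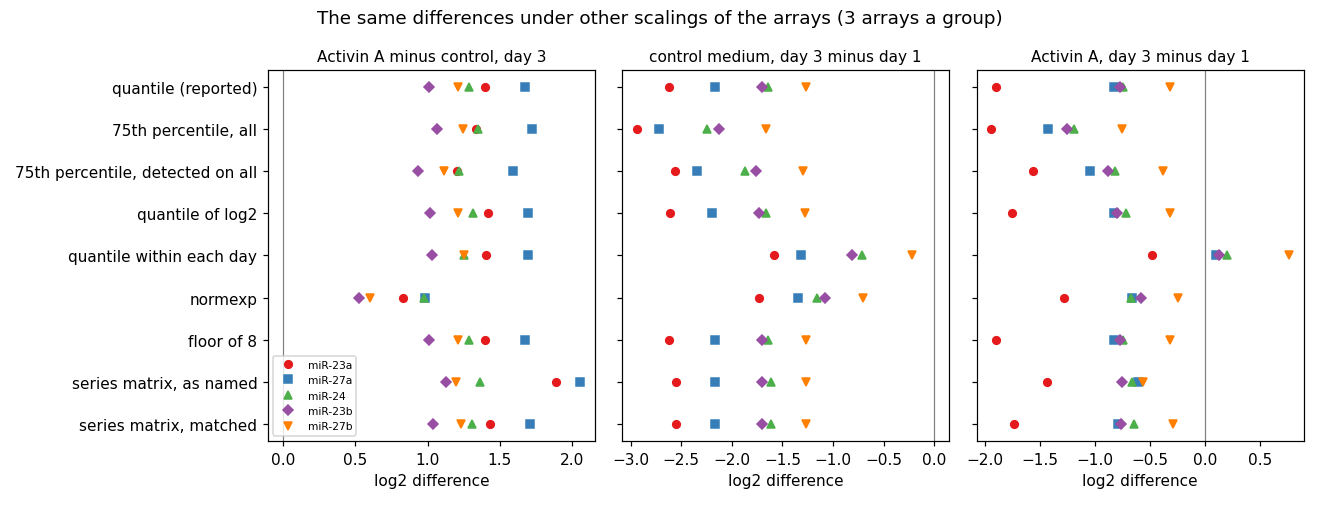
Log2 differences of the 5 abundant members under 9 ways of scaling the arrays, for Activin A minus control at day 3, control day 3 minus day 1, and Activin A day 3 minus day 1. Each point is a difference of group means of 3 arrays. Activin A minus control stays above 0 for every member and scaling, while Activin A day 3 minus day 1 lies on both sides of 0 for every member but miR-23a.

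The difference of Activin A from control was larger at day 5 than at day 1 for all 5 members. The change in that difference was 0.91 for miR-23a (adjusted p = 0.000765) and 1.68 for miR-27a (adjusted p = 0.0168), in a limma test chosen after the data had been seen. It was 1.36 for miR-24, 1.51 for miR-23b and 1.68 for miR-27b, and 31.4% of 373 miRNAs passed the same test. For the combined treatment the change from day 1 to day 5 was 1.20 to 1.81 over the members, beside 44.8% of miRNAs. From day 3 to day 5 the difference of Activin A from control widened by 0.46 for miR-24, 0.58 for miR-23b and 0.72 for miR-27b, beside 20.9% of all miRNAs, and the change did not pass for miR-23a and miR-27a. This change uses the control day 3 arrays of the comparison that chose the family. The miR-24 value missed with scaling to the 75th percentile of all miRNAs (0.42, adjusted p = 0.182) and with normexp (0.16, adjusted p = 0.132). The miR-23b value missed with both 75th percentile scalings (0.68 and 0.59, adjusted p = 0.0575 and 0.0699) and without replicate 3 of control day 3 (adjusted p = 0.0568), and miR-27a passed without replicate 1 of Wnt3a day 5 (0.34, adjusted p = 0.0266).

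Whether the a and b paralogs kept step was read within each array as the log2 level of the a member minus that of the b member. This value depends on the probes of both, so only its change between groups is compared. Arrays with Activin A, alone or with Wnt3a, were set against arrays without it on the same day, in an exact two-sided permutation test that exchanges the Activin A labels within arrays with and within arrays without Wnt3a. Its smallest p is 0.005.

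At day 1 miR-23a minus miR-23b was 1.70 with Activin A and 1.18 without, a difference of 0.52 (exact permutation p = 0.005, the smallest it can give). The group means were 1.06 ± 0.06 in control and 1.30 ± 0.20 under Wnt3a, against 1.65 ± 0.01 under Activin A and 1.75 ± 0.08 under the combination (SD, n = 3). Every array with Activin A lay above every array without. The direction was the same within both slides, at 0.59 and 0.42. The size depends on the scaling: on unnormalized signals, which the rank-based normalization has not stretched, the difference was 0.17 (exact permutation p = 0.005). Among the 10 pairs of the 5 members at day 1, the 4 that include miR-23a gave p = 0.005 (adjusted over the 10 pairs, 0.0125; exact permutation), each with miR-23a raised relative to its partner, and the other 6 did not pass.

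At day 3 the corresponding values for miR-23a minus miR-23b were 0.52 with Activin A, 0.88 with both, 0.14 in control and 0.60 with Wnt3a. At day 5 the arrays with and without Activin A were alike in the mean, at 0.61 and 0.63, a difference of -0.018 (exact permutation p = 0.56). On unnormalized signals the day 5 difference was 0.072 (exact permutation p = 0.02). The effect of Activin A on miR-23a relative to miR-23b was lower at day 5 than at day 1 by 0.54 (exact permutation p = 0.001475), but by 0.094 on unnormalized signals (exact permutation p = 0.12685), so its narrowing rests on the normalization.

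**Figure D4:**
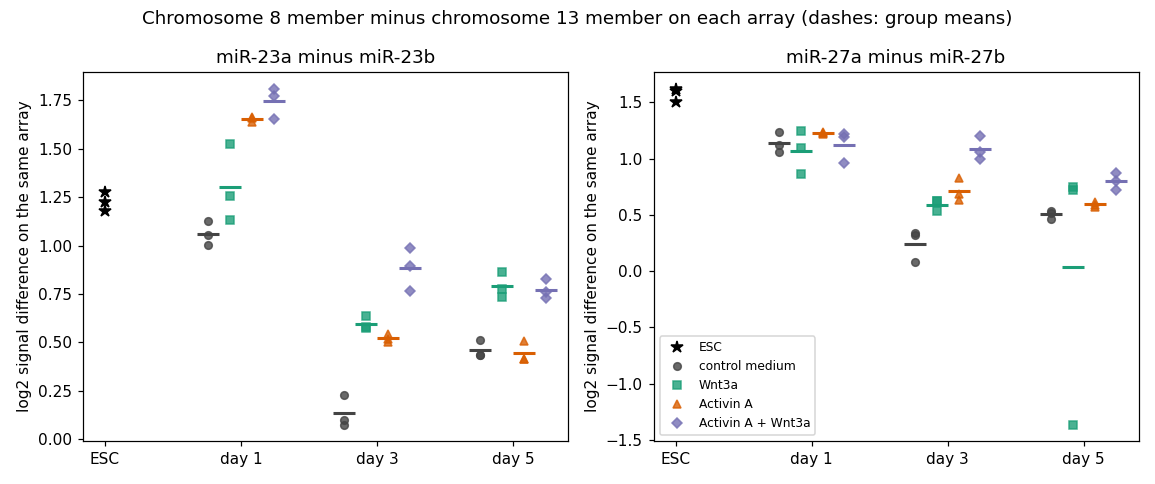
Log2 level of the a paralog minus that of the b paralog within each array, for miR-23 and miR-27, by treatment and day. Points are single arrays, 3 per group. At day 1 the arrays with Activin A lie above those without for miR-23, and replicate 1 of Wnt3a at day 5 lies far below the others for miR-27.

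MiR-27a minus miR-27b did not differ with Activin A at day 1 past the threshold (0.073, exact permutation p = 0.35). At day 3 its mean was 0.25 in control and 0.59 under Wnt3a, against 0.72 under Activin A and 1.09 under the combination. At day 5 it was 0.70 with Activin A and 0.27 without, a difference of 0.43 (exact permutation p = 0.01). That size rested on replicate 1 of Wnt3a, whose value was -1.36: without this array the difference was 0.076 (exact permutation p = 0.04). Across the 10 pairs at day 5, miR-27a against miR-27b had an adjusted p of 0.0333 (exact permutation), as had miR-27a against miR-24 and miR-24 against miR-27b. Each of these tests includes replicate 1 of Wnt3a, and the pairs with miR-24 were not tested without it.

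MiR-24-2*, the 5′ arm opposite miR-24 in the miR-23a cluster, was near the detection limit. It was detected on 7 of 39 arrays, all of which had received Activin A. With both factors at day 3 it had signals of 15.8 and 18.9 in replicates 2 and 3, with Activin A at day 5 of 18.6 and 17.2 in replicates 1 and 2, and with both at day 5 of 10.71, 18.4 and 8.64. It was detected on no array of control, Wnt3a or ESC, nor at day 1. Its mean normalized level was 3.48-fold over the floor of 2 with both factors at day 5 and 2.13-fold with Activin A at day 5. The lowest detected level of the control arrays of day 5 lay at that floor. With both at day 3 it was 1.18-fold over the mean lowest detected level of the control arrays of that day. The means for Activin A at day 5 and both at day 3 include an undetected array set to the floor, so these sizes depend on the floor. It passed the filter only through groups in which it was high, so no test is given.

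The rise of the members with Activin A came with changes in other lists. The pluripotency list was higher with Activin A than control in 10 of 11 miRNAs at day 3 and 9 of 11 at day 5, with median differences of 0.54 and 1.84. Its summed log2 level ranged from 13.27 to 13.37 in control day 5 and from 15.07 to 15.21 with Activin A. All 5 members of the epithelial miR-200 family were higher on both days, and their sum went from 6.90 to 6.91 in control day 5 to 10.30 to 10.32 with Activin A. Of 5 neural miRNAs, 4 were lower with Activin A at day 5, with sums of 9.60 to 9.97 in control and 6.64 to 6.76 with Activin A. These counts are at an adjusted p under 0.05 alone, for which the share of all miRNAs is not given. Past 2-fold as well, 12.6% of all miRNAs were called as higher with Activin A at day 3 and 13.6% at day 5. At day 5, 25% were called in either direction. The part of these cell states in the members' difference was not tested.

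The fibroblast list did not move that way with Activin A at day 5. Of its 6 tested miRNAs 1 was higher and 0 were lower, with a median difference of -0.01, and its sum was 10.74 to 10.83 in control and 10.41 to 10.51 with Activin A. At day 3 2 of 3 tested were higher and 1 lower, and the sums were 9.84 to 10.20 in control and 10.18 to 10.39 with Activin A. With both factors at day 5, 3 of 6 were higher at an adjusted p under 0.05 alone, and the sum was 10.58 to 10.88. The stricter rule, which also asks for over 2-fold, called 15.5% of all miRNAs as higher. The share at the adjusted p alone is not given, so the 2 cannot be compared. Of 7 endothelial and blood miRNAs, none of those tested changed with Activin A or with both at day 5, and in each of control and Activin A at day 5, 5 of 7 were detected on no array.

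Over the 13 group means, the 5 abundant members followed each other with Pearson correlations of 0.923, between miR-23a and miR-27b, to 0.980, between miR-23b and miR-27b. The miRNAs outside the family with the most similar profiles, among 138 candidates detected on all arrays, were miR-292-5p (0.934), miR-31 (0.934) and miR-34c (0.933) for miR-23a, and miR-31 (0.956), miR-292-3p (0.942) and miR-293 (0.941) for miR-27a. MiR-24 was closest to miR-31 (0.934), miR-292-3p (0.933) and miR-293 (0.913). MiR-23b was closest to miR-31 (0.945), miR-182 (0.933) and miR-293 (0.910), and miR-27b to miR-182 (0.947), miR-31 (0.947) and miR-125a-5p (0.925). MiR-31 thus stood among the nearest 3 of every abundant member. These correlations describe 13 means that share arrays and normalization, and miR-292 and miR-293 belong to the pluripotency cluster miR-290.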

How the data were processed

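RNA from 39 samples of mouse ESCs and cells grown from them was hybridised to 1-colour Agilent miRNA arrays. The authors deposited background-subtracted intensity values, summed by Feature Extraction (10.7.3.1 per the file headers, 9.5.3.1 per the labels) over the probes of each of 650 miRNAs. The other values, the detection flags, were deposited with them. The authors also deposited log2 values, quantile normalized after a floor, used here as an alternative only.

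Intensities were quantile normalized over the 39 arrays, floored at 2 and log2 transformed. MiRNAs detected on at least 2 of 3 arrays of a group were tested with limma 3.58.1 in R 4.3.3 (statmod 1.5.0 for blocks), per day for treatments (240, 326 and 368 miRNAs at days 1, 3 and 5) and over all arrays for time (373), with Benjamini-Hochberg adjustment. Named miRNAs were the members, their other arms and the 3 nearest profiles of each. Members and lists were chosen with earlier results of these data known. The fits were tested on simulated data. Same-numbered replicates deviated together with correlations of -0.50 to 0.41, so the numbers do not pair samples. Alternatives changed scaling, floor, filter, fit, slide, replicate block and single arrays. The number of arrays limits the precision.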

Additional observations from a re-analysis of the deposited data

Results flagged for a closer look

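The results below were picked out because the effect of Activin A against control differed between days in a test of the difference itself, made with limma over the 39 arrays and chosen after the data had been seen. Between day 1 and day 5 the log2 difference of Activin A from control grew by 0.91 for miR-23a, 1.68 for miR-27a, 1.36 for miR-24, 1.51 for miR-23b and 1.68 for miR-27b, beside 31.4% of all miRNAs passing. Between the same days, that of Activin A plus Wnt3a grew by 1.20 for miR-23a, 1.81 for miR-27a, 1.59 for miR-24, 1.58 for miR-23b and 1.50 for miR-27b, beside 44.8% of all miRNAs passing. Between day 3 and day 5, the Activin A difference grew by 0.46 for miR-24, 0.58 for miR-23b and 0.72 for miR-27b, beside 20.9% of all miRNAs, with the control day 3 arrays shared with the comparison that chose the family.

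The effect of Activin A on miR-23a minus miR-23b changed by -0.54 from day 1 to day 5 (exact permutation p = 0.001475 over 160000 arrangements). On unnormalized signals the change was -0.094 (exact permutation p = 0.12685).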

How the results depend on the processing

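The differences of Activin A from control at day 3 stayed above 0 and past the threshold for the 5 abundant members in all 14 alternatives, as did those at day 5 except for miR-27a, which missed it in 3. The number of members called past 2-fold was 0 at day 3 and 2 at day 5 with normexp correction, and 2 for control day 3 against day 1 with each day normalized alone. Leaving out single arrays gave 4 to 5 called members at day 3, 4 to 5 at day 5 and 5 for the control time course. Normexp called 11, 25 and 47 of all miRNAs in these 3 comparisons against 62, 92 and 184. The median of all miRNAs for control day 3 against day 1 was 0.01 with a floor of 8 and 1.10 with each day normalized alone.

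The day 5 effect of Activin A on miR-23a minus miR-23b turned from -0.018 to 0.072 on unnormalized signals, and to 0.18 with normexp, and was -0.11 within 1 slide. Both 75th percentile scalings leave this effect at its unnormalized value by construction, because 1 factor per array cancels within the array. Omitting single arrays gave -0.033 to 0.00071. That on miR-27a minus miR-27b missed the threshold at 0.45 with log2 signals normalized and at 0.51 in the series matrix, and spanned 0.076 to 0.60 on omitting single arrays, missing it without any array of Activin A plus Wnt3a. With the replicate number as a block it was 0.43 (exact permutation p = 0.0625) and that of miR-23 -0.018 (p = 0.53125, exact permutation).

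With each day normalized alone, Activin A day 3 against day 1 turned to 0.20 for miR-24, 0.13 for miR-23b and 0.76 for miR-27b, and control day 1 against ESC to 0.14 for miR-24. Both 75th percentile scalings gave 0.17 for the latter and -0.078 and -0.079 for miR-24 with Wnt3a at day 1. Without Wnt3a day 5 replicate 1, Wnt3a against control at day 5 turned to 0.39 for miR-27a and 0.16 for miR-27b, and without replicate 3 the values were -1.06 and -0.25. The causes were not tested. MiR-24-2* lay near the detection limit.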
